A study of Homo sapiens with 18 samples.

Results

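The transcriptional response to heat was measured in SW620 cells, a human colon cancer line, that carried a scramble siRNA, the control for the silencing of Lonp1, a mitochondrial protease, in the other arm of the study. The response was read from 6 libraries, 3 of cells kept at 37 °C (Ctrl) and 3 of cells held at 42 °C for 1 h (HS), out of 18 libraries in the series. The cells had been transfected in both groups, so that the siRNA was shared and the labels differ in temperature. The other 12 libraries came from cells with scramble siRNA that were returned to 37 °C after HS and had 1 h to recover (HS+REC), and from Ctrl, HS and HS+REC cells with siLonp1. Genes with CPM (the count scaled to the size of the library, in counts per 1e+06) above 1 in at least 3 of the 6 libraries were kept, which left 12451 of the 26485 gene symbols. These are called the genes tested, and 60 of them were HSP or J-domain genes by symbol (22 and 38), which are set aside in what follows so that the rest of the response can be described.

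Heat unfolds proteins, and heat shock factor 1 (HSF1) answers by binding repeated GAA units, the heat shock element, in the promoters of chaperone genes. In the same minutes, mitogen activated kinases and the serum response factor switch on immediate early genes, whose short lived transcripts encode transcription factors such as FOS and EGR1 and the phosphatases that shut the kinases down. Heat is also known to slow splicing, to disturb the ends of transcripts and to lower transcription at many genes that are active at the normal temperature.

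Before the comparison, the libraries were compared with each other. The Ctrl scramble libraries held 39154783, 45013503 and 39430137 counts, and the HS scramble libraries 42892126, 43383858 and 30815860. HS scramble replicate 3 was the shallowest and stood apart from the other HS libraries, since its counts gave a chi-square of 15.2 and 18.9 per degree of freedom against them, where those gave 4.05 between themselves and the Ctrl libraries 3.51 to 6.04. Counts without this library are therefore given where it moved a printed count by more than 1.5 times. Markers of the colon epithelium (15 in the table, 11 tested, 1 without a count in either group) summed to between 9822 and 10267 CPM in Ctrl and between 10311 and 10653 CPM in HS, and none of the 11 was called. The summed markers of fibroblasts lay between 44.3 and 50.7 CPM, of leukocytes between 20.7 and 22.3 CPM and of endothelium between 0.653 and 1.42 CPM over the 6 libraries, with 5 of 10 leukocyte and 4 of 8 endothelial markers at 0 in every Ctrl library. Among the 3 fibroblast markers tested 1 was raised and 1 lowered. LONP1, the target of the silencing in the other arm, was at 220.2, 224 and 212 CPM in Ctrl and 220.4, 229 and 196 CPM in HS (log2 fold change -0.02, standard error 0.07). HSF1, at 87.7 ± 3.41 CPM in Ctrl and 96.6 ± 5.03 CPM in HS (mean ± SD, n = 3, as throughout), gave 0.14 with an adjusted p of 0.15 and HSF2 0.02 with 0.87, so neither heat shock factor passed the test at the transcript level.

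HS raised 328 genes and lowered 43 by more than 2-fold, which is 2.63% and 0.345% of the 12451 genes tested (edgeR quasi-likelihood test over the counts, Benjamini-Hochberg adjusted p, here FDR, of at most 0.05). Without the fold limit 2499 genes were raised (20.1%) and 1949 lowered (15.7%), and 8003 (64.3%) were neither. The balance of these counts depended on the scaling, since library size alone gave 2082 raised and 2707 lowered, RLE factors 2314 and 2238 and DESeq2 2327 and 2328. List counts below are at any fold unless a limit is named. They stand beside 20.1% raised and 15.7% lowered of all genes tested. Of the 328, only 14 were HSP or J-domain genes. The other 314 rose by a median of 1.40 on the log2 scale, 74 of them by more than 4-fold and 29 by more than 8-fold, whereas only 3 of the 43 lowered genes fell by more than 4-fold and their median was -1.27. Most changes at any fold were small, and outside the family 1659 raised and 1728 lowered genes moved by at most 1.5-fold. All 314 and all 43 had each HS library beyond each Ctrl library, as did 49.99% of all genes tested. Both raised and lowered genes were low in Ctrl, with medians of 4.75 and 4.95 CPM against 30.1 CPM over all genes tested. Of the 314, 58 exceeded 1 CPM in no Ctrl library and 13 of the 43 in no HS library, so these passed the filter through 1 group alone and had to differ. Among the genes named below these include PGF, FOXJ1, CXCR4, DLL1, ZNF701, RAB39A, PNLDC1, TDRG1, CCL26, RFPL2, CRYAB, the snoRNAs of HSPA8 and TCP1 and, on the lowered side, SNORA73A, SNORD22, SNORD30 and SNORA32. In sum the 314 genes gained 15048 CPM, beside 24335 CPM gained by the HSP and J-domain genes, and the sum of the 43 lowered genes fell by 840.5 CPM. Since counts were measured relative to the library, a change in the total RNA of the cells cannot be seen here, and fewer cells of a kind cannot be told apart from less RNA in each. The study's methods call the replicates independent and biological, without saying more, and the p-values measure the spread between these libraries. After 1 h of recovery, the HS+REC mean lay beyond the HS mean for 134 of the 314 raised genes, nearer to HS than to Ctrl for 84 and nearer to Ctrl for 96, and for the 43 lowered genes these numbers were 4, 21 and 18.

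**Figure D1:**
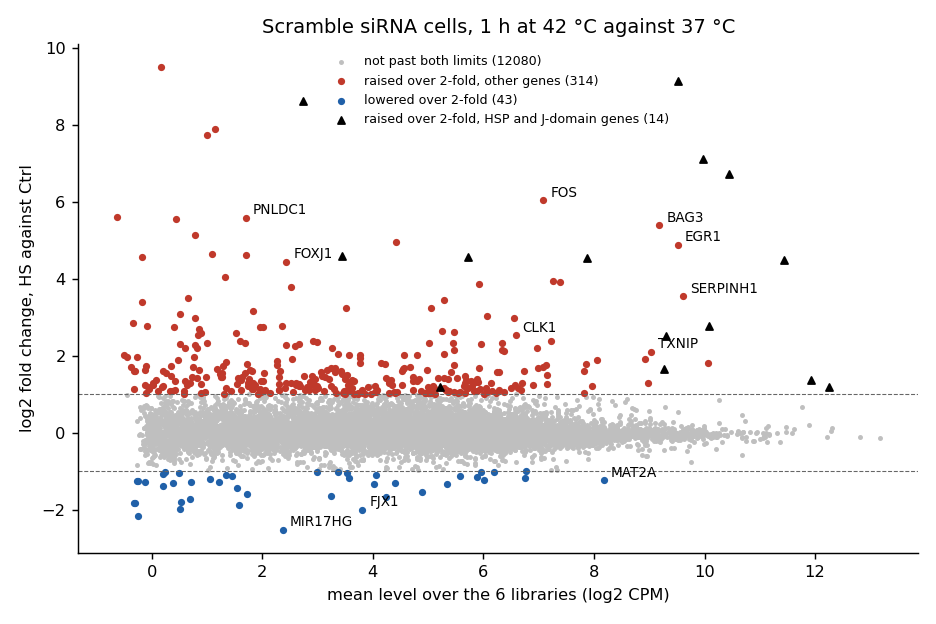
Log2 fold change in HS against Ctrl for the 12451 genes tested in scramble siRNA cells, against the log2 of the mean CPM over the 6 libraries, with dashed lines at 2-fold. Red points are the 314 genes raised outside the HSP and J-domain genes, black triangles the 14 raised genes of that family and blue points the 43 lowered genes, most of which stay above a log2 fold change of -2.

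The largest rise among genes outside the family with a mean of at least 5 CPM was that of FOS, the founding member of the AP-1 transcription factors (chr14:75278826-75282230 of GRCh38, 4 exons). It was at 4.21, 3.83 and 4.04 CPM in the Ctrl libraries and 263, 279 and 259 CPM in the HS libraries, a log2 fold change of 6.05 (standard error 0.14, FDR 2.7e-19). After recovery its level was 19.7 ± 1.95 CPM. FOS lay far apart between the groups, and the HS+REC libraries lay between them. Of the 19 AP-1 and ATF factors tested, 11 were raised, 5 of them over 2-fold, and 1 was lowered, with a median of 0.40 beside 0.004 over all genes tested. FOSB reached 54.2 ± 5.39 CPM from 10.7 ± 1.29 CPM in Ctrl (log2 fold change 2.34), ATF3, the stress induced repressor of the family, 21.7 ± 1.97 from 5.59 ± 0.330 CPM (1.95) and JUNB 47.5 ± 1.54 from 20.5 ± 1.69 CPM (1.21). The most abundant member, FOSL1, was at 277 ± 14.6 CPM in Ctrl and 241 ± 23.2 in HS, and its log2 fold change of -0.20 lost the FDR limit when any of 4 single libraries was left out.

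The other immediate early genes had the highest share of raised members of the lists examined. Of 28 tested, 22 were raised, 15 of them over 2-fold, and none was lowered, with a median of 1.23. EGR1, a zinc finger factor that growth signals induce within minutes, was at 51.8, 45.2 and 46.9 CPM in Ctrl and 1475, 1549 and 1227 CPM in HS (log2 fold change 4.88, FDR 2.7e-18), and the HS library with the lowest level was replicate 3. EGR2 rose from 1.56, 0.941 and 1.52 to 40.4, 44.4 and 39.6 CPM (4.96) and EGR3 from 8.08, 7.82 and 7.44 to 116, 127 and 98.7 CPM (3.87). EGR4, of the same family, rose from 1.95 ± 0.483 to 4.78 ± 0.918 CPM (1.30). ARC, known from synaptic activity, rose from 1.01 ± 0.149 to 6.77 ± 1.11 CPM (2.76), and ZFP36, an RNA binding protein that destabilises short lived transcripts, from 11.2 ± 0.334 to 36.1 ± 3.54 CPM (1.69). After recovery EGR1 stood at 138 ± 4.98 CPM and EGR2 at 6.79 ± 0.585 CPM.

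The promoter of EGR1 is printed because it holds the element that serum response factor reads. The 250 bases before its start in the RefSeq table (chr5:138465229-138465478, plus strand, GRCh38.p14) carry a pair of CArG boxes, in capitals, the first beginning 105 bases before the start.
EGR1: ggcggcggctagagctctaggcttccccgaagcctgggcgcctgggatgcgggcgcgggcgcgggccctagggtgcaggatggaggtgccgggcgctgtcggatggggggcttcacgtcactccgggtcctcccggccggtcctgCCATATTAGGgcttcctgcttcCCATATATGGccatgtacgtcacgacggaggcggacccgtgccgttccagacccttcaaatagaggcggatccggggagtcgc
A CArG box, searched on both strands, was found in 1.29% of all 27305 genes of the table, each by the 300 bases around the start listed first for it. Of the 36 AP-1, ATF and other immediate early genes with a promoter there, 2 held a box. EGR2, FOSB and JUNB held none, whereas GPR183, a lowered gene, held a box. Serum response factor also reads such boxes at genes of the actin cytoskeleton, of which 20 were tested, 1 was raised and 7 were lowered, with a median of -0.12. VCL (vinculin) was at 590.3 ± 28.7 CPM in Ctrl and 436 ± 37.4 in HS (log2 fold change -0.44), TAGLN at 17.7 ± 1.62 and 12.5 ± 0.893 (-0.50) and MYL9 at 14.7 ± 0.320 and 10.3 ± 0.634 (-0.50). ACTB, the most abundant member, gave -0.12 with an FDR of 0.12.

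Some genes that encode the brakes of kinase signalling rose. DUSP1, a phosphatase that inactivates mitogen activated kinases, was at 7.19, 6.30 and 6.23 CPM in Ctrl and 63.8, 75.6 and 75.1 CPM in HS (log2 fold change 3.44, FDR 2.3e-13). SPRY4, an inhibitor of receptor tyrosine kinase signals, gave 1.58, DUSP5 1.30 and DUSP2 1.30. Of the 18 dual specificity phosphatases and Sprouty genes tested, 8 were raised and 2 lowered, with a median of 0.09, and the lowered ones were SPRY1 (-0.95) and DUSP7 (-0.50). RGS2, which shortens G protein signals and lies in no list, rose from 2.31, 2.05 and 2.16 to 18.2, 19.9 and 24.3 CPM (3.25). Among Krueppel-like factors 8 of 11 were raised and none was lowered. KLF10, a factor induced early by TGF-beta, rose most, from 105 ± 4.33 CPM in Ctrl to 360.4 ± 14.3 in HS (1.78), KLF2 gave 1.00 and KLF6 0.70.

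**Figure D2:**
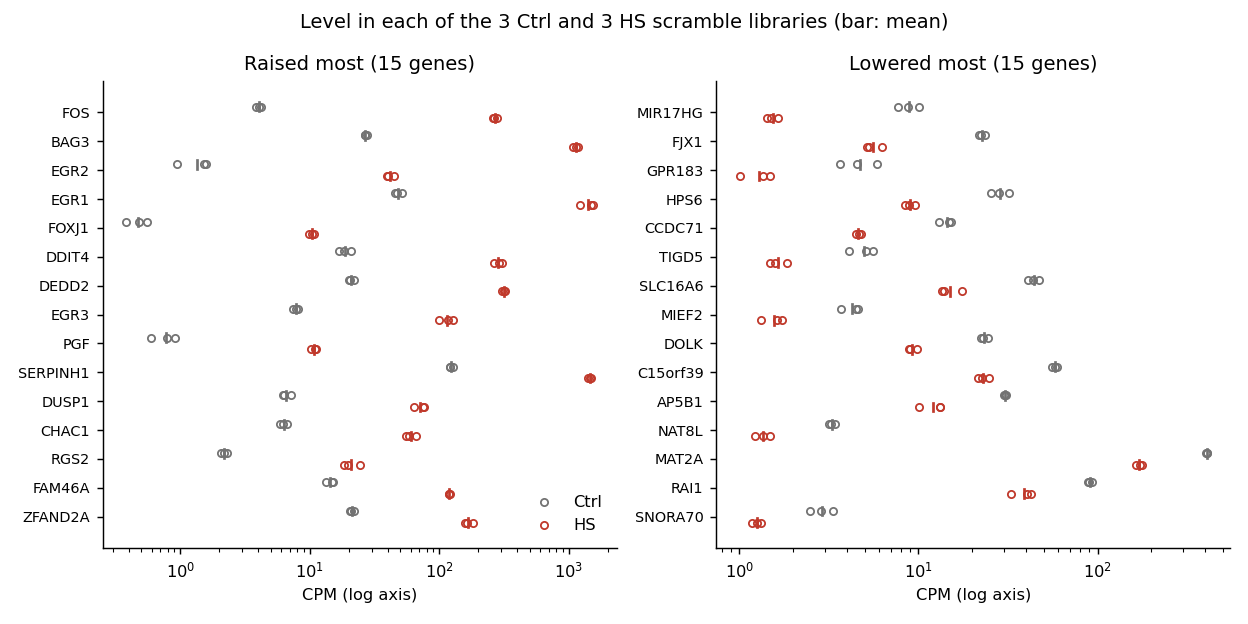
CPM on a log axis in each of the 3 Ctrl (grey) and 3 HS (red) scramble libraries for the 15 genes raised most and the 15 lowered most outside the HSP and J-domain genes among those with a mean over the 6 libraries of at least 5 CPM (raised) or 2 CPM (lowered), with bars at the means. No gene shown has overlapping groups, since the choice of genes required it, and the gaps are wider on the left (FOS, log2 fold change 6.05) than on the right (MIR17HG, -2.52).

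Growth arrest and cell death regulators were raised in part. GADD45B, which acts in stress kinase signalling and DNA demethylation, went from 63.4 ± 4.32 to 208 ± 15.7 CPM (log2 fold change 1.71), CDKN1A, the p21 inhibitor of cyclin dependent kinases, from 4.74 ± 0.107 to 15.3 ± 1.39 CPM (1.69) and BTG2, an antiproliferative gene of the early class, from 11.2 ± 1.09 to 28.9 ± 1.96 CPM (1.36). In the list of growth arrest genes and p53 targets 11 of 22 were raised, 6 of them over 2-fold, and 5 were lowered. Of 15 BCL2 family genes 5 were raised and 1 lowered, and the raised ones included both MCL1, which protects from apoptosis, from 292 ± 11.5 to 710.2 ± 39.9 CPM (1.28), and PMAIP1 (NOXA), which opposes it, from 20.1 ± 0.804 to 41.6 ± 4.30 CPM (1.05). DEDD2, a death effector domain gene, was among the 15 genes raised most of those with a mean of at least 5 CPM, at 20.2, 22.0 and 20.3 CPM in Ctrl and 303, 324 and 317 CPM in HS (3.92).

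Signalling genes of several pathways followed with smaller numbers. Of 21 NF-kB targets 11 were raised and 2 lowered, among the raised the chemokines CCL20 (3.43 ± 0.186 to 15.9 ± 3.01 CPM, log2 fold change 2.20) and CXCL8 (0.99) and the chemokine receptor CXCR4 (0.663 ± 0.0767 to 3.34 ± 0.266 CPM, 2.33), which passed the filter only through HS. In TGF-beta and BMP signalling 9 of 18 were raised and 2 lowered, with ID1 (28.6 ± 1.98 to 92.7 ± 4.38 CPM, 1.70) and ID3 (1.44), BMP responsive inhibitors of basic helix-loop-helix factors, and the inhibitory SMAD7 (1.24) up and SKI, a repressor of SMAD transcription, down (74.6 ± 3.10 to 41.3 ± 4.89 CPM, -0.85). Of 13 Notch genes 6 were raised and none was lowered. They included the ligand DLL4 (1.23) and the abundant ligand JAG1, at 146 ± 7.31 CPM in Ctrl and 265 ± 20.2 in HS (0.86). The ligand DLL1 (1.72) and the target HEY1 (0.97) were also among the 6, but passed the filter only through HS and rest on few counts. PGF, a growth factor for blood vessels, rose from 0.914, 0.795 and 0.594 to 10.1, 10.9 and 11.2 CPM (3.80) and FOXJ1, the master regulator of motile cilia, from 0.553, 0.481 and 0.380 to 10.4, 10.8 and 9.92 CPM (4.45), and their HS+REC levels were 22.4 ± 0.862 and 14.7 ± 3.19 CPM.

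Protein folding genes beyond the HSP and J-domain symbols held some of the most abundant raised genes. BAG3, the nucleotide exchange factor that links HSP70 to small heat shock proteins and autophagy (chr10:119651380-119677819, 4 exons), rose from 27.6, 26.5 and 26.6 to 1134, 1181 and 1079 CPM, a log2 fold change of 5.39 (standard error 0.11, FDR 2.3e-20), and reached 1628 ± 142 CPM after recovery. SERPINH1, the collagen chaperone of the endoplasmic reticulum also called HSP47, rose from 122, 127 and 121 to 1395, 1458 and 1484 CPM (3.55). FKBP4, an HSP90 cochaperone of steroid receptors, rose from 202 ± 1.11 to 767 ± 19.6 CPM (1.93), CACYBP from 151 ± 0.968 to 349.7 ± 35.2 CPM (1.21) and AHSA1, the activator of the HSP90 ATPase, from 202 ± 1.74 to 339 ± 15.5 CPM (0.74). In the list of 30 cochaperones 13 were raised, 3 of them over 2-fold, and 2 were lowered, so 15 did not pass.

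Protein degradation genes were not raised as a group. UBB, a polyubiquitin gene, rose from 882 ± 26.7 to 1586 ± 125 CPM (0.85), and ZFAND2A (AIRAP), a proteasome associated stress gene, from 20.9, 21.9 and 20.5 to 159, 162 and 182 CPM (2.99). Of the 43 polyubiquitin, proteasome and p97 genes 3 were raised and 2 lowered, although 10 were lowered when HS scramble replicate 3 was left out. The 16 CCT chaperonin and prefoldin genes had a median of -0.03, with 2 raised and 4 lowered, and without HS scramble replicate 3 a median of -0.10, with 1 raised and 6 lowered. TCP1, the first subunit of the chaperonin, rose from 599 ± 11.7 to 873 ± 18.6 CPM (0.54). CCT4 gave 0.22 with all libraries and 0.15 without HS scramble replicate 3, which was no longer called.

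Sequences are shown for SERPINH1, ZFAND2A and TCP1 because they hold units of the heat shock element. The search was for GAANNTTC and TTCNNGAA, each a pair of inverted units and its own reverse complement, and for the run in which both overlap so as to give 3 units. A pair was found in 13.7% of the promoters of the table and the run of 3 units in 0.487%. Among the genes tested that had a promoter there, the shares were 9.74% and 0.282%. SERPINH1 (chr11:75562003-75562252, plus strand) holds the run of 3 units, in capitals, beginning 76 bases before the start, and ZFAND2A (chr7:1160197-1160446, minus strand) a pair at 171 bases before it. The starts are those that RefSeq lists first. GENCODE begins SERPINH1 at 75562056 and ZFAND2A at 1160759, so both matches lie within the GENCODE genes.
SERPINH1: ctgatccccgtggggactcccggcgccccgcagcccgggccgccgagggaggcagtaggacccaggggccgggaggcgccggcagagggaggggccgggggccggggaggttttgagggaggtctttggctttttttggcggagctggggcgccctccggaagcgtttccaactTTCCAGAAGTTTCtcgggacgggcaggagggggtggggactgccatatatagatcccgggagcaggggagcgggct
ZFAND2A: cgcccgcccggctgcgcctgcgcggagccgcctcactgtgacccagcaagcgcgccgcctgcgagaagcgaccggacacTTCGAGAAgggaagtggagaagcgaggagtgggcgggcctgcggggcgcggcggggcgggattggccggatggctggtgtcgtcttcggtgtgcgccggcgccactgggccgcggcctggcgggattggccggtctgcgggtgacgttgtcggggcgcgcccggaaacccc
The last is a stretch of 30 bases upstream of TCP1. By GENCODE, TCP1 and MRPL18, a protein of the large mitochondrial ribosomal subunit, start 109 bases apart in opposite directions on chromosome 6. The start of TCP1 that RefSeq lists lies inside the GENCODE gene, so distances from it are longer. A pair of units, in capitals, begins 231 bases before that RefSeq start and, on the other strand, 14 bases after the start of MRPL18. The stretch (chr6:159789815-159789844, minus strand) therefore lies within MRPL18.
TCP1: tcgtttgaggcGAAGGTTCaacctcttccc
Among other raised genes named here, DDIT4, CXCR4, ID1, CCT4, MICA and MICB also held a pair in this window and TDRG1 the run of 3 units. Most of the other raised genes named here that had a promoter in the table held neither. BAG3, DEDD2, CACYBP, AHSA1, UBB, CLK1, RAB39A, FOS, EGR1, EGR2, PGF, DUSP1, CHAC1, RGS2, FAM46A and SESN2 were among them. FOS also held no CArG box, and the window of UBB lies within its GENCODE gene. These are descriptions of letters, not of binding, and the lack of a match says only that the letters are not in the window. Of the 314 raised genes only 214 had a promoter in the table, under 80%, so the share of raised genes with each motif is void as a check and is not given.

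TCP1 and MRPL18 rose by unequal amounts. MRPL18 was at 105, 113 and 115 CPM in Ctrl and 326, 331 and 361 CPM in HS (log2 fold change 1.61, FDR 1.6e-12) and at 694 ± 73.4 CPM after recovery. Of 77 mitochondrial ribosomal proteins only MRPL18 and MRPS6 (0.73) were raised, and 19 were lowered, with a median of -0.11. Without HS scramble replicate 3, 35 were lowered, with a median of -0.18. PNLDC1, an exonuclease gene of the germ line that starts 1813 bases after the end of MRPL18 on the same strand, went from 0.130 CPM in Ctrl to 5.88, 7.46 and 5.76 CPM in the HS libraries (5.60), the largest rise of the 3. Its size rests on 10, 6 and 1 counts in Ctrl, and was 6.31 without Ctrl scramble replicate 1 and 5.13 without Ctrl scramble replicate 3. Across the annotation such pairs were uncommon. Of 297 raised genes that could be placed, 5 (1.68%) started within 10 kb after the end of a raised gene on the same strand, beside 0.387% of all genes placed. These were PNLDC1, AKR7L after AKR7A3, C3orf38 after ZNF654, and SNORD14D and SNORD14E, which follow other SNORD14 symbols within HSPA8. All were named after their values were seen. PNLDC1, SNORD14D and SNORD14E passed the filter only through HS and had to differ, so the share is not read as a result. Whether reads run on from the gene upstream was not tested.

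Stress pathways other than the heat shock response were raised in single branches. DDIT4 (REDD1), which restrains mTORC1, rose from 20.9, 18.4 and 16.7 to 306, 287 and 266 CPM (log2 fold change 3.94), CHAC1, which degrades glutathione, from 6.66, 6.25 and 5.89 to 65.7, 58.3 and 55.7 CPM (3.26), SESN2, a sestrin, from 11.3, 10.5 and 11.4 to 49.1, 46.4 and 37.6 CPM (2.01) and PPP1R15A (GADD34), which restores translation, from 114 ± 4.45 to 421 ± 22.2 CPM (1.89). They belong to the integrated stress response, in which 12 of 29 were raised, 6 over 2-fold, and 6 were lowered, so that the median was -0.01. The lowered members ASNS, PSAT1, ATF5, NUPR1, SLC7A5 and GARS include enzymes and carriers of amino acid supply, at log2 fold changes from -0.58 to -0.16. The unfolded protein response of the endoplasmic reticulum went down more often than up, with 8 of 25 lowered and 3 raised. Its sensors ERN1 (0.72) and EIF2AK3 (0.57) rose, and the degradation factors SYVN1 (-0.45) and EDEM1 (-0.36) fell. Of 22 NRF2 targets 4 were raised and 4 lowered (18.2% each), near the 20.1% and 15.7% of all genes tested. HMOX1 was among those up (2.85 ± 0.113 to 6.98 ± 1.03 CPM, 1.28) and SRXN1 among those down (-0.47). MTF1, the zinc sensing factor, rose from 30.4 ± 1.60 to 62.7 ± 4.85 CPM (1.04), and its target MT2A gave 0.35. In the list of 9 metallothioneins and zinc carriers 3 were raised and 2 lowered. Of the 14 heat shock factor genes and regulators 5 were raised and none lowered, led by the ubiquitin ligase subunit FBXW7 (0.68), and 2 were lowered without HS scramble replicate 3.

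**Figure D3:**
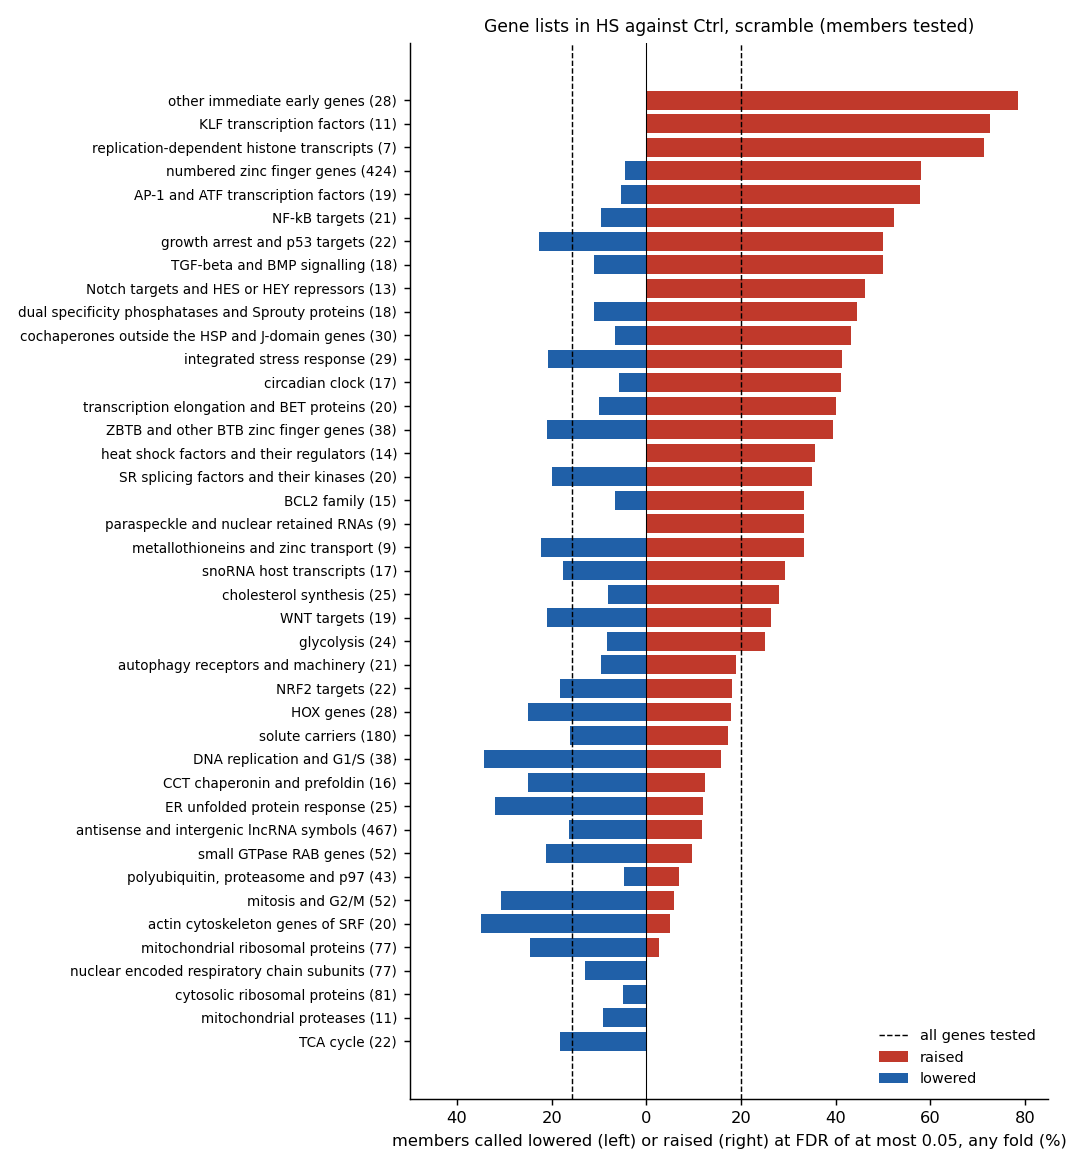
Share of the tested members of each gene list called raised (red, to the right) or lowered (blue, to the left) at an FDR of at most 0.05 and any fold, with the number tested in brackets and dashed lines at the shares over all genes tested (20.1% and 15.7%). The immediate early genes, Krueppel-like factors, replication-dependent histone symbols (7 tested) and numbered zinc finger genes stand at the top, and mitochondrial and ribosomal lists at the bottom.

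Genes of RNA processing moved in both directions. CLK1, a kinase that phosphorylates SR splicing factors, rose from 27.3, 28.1 and 29.0 to 161, 159 and 170.2 CPM (log2 fold change 2.54, FDR 7.3e-14), CLK4 from 5.70, 4.83 and 5.66 to 21.1, 21.6 and 22.9 CPM (2.02) and CLK3 from 21.2 ± 0.385 to 47.4 ± 1.42 CPM (1.16). In the list of SR factors and their kinases 7 of 20 were raised and 4 lowered, with a median of -0.03, and those 3 were the members over 2-fold. Of 20 genes of transcription elongation and BET proteins 8 were raised and 2 lowered. HEXIM1 (0.68) and HEXIM2 (1.12), inhibitors of the elongation factor P-TEFb, rose together with the cyclin CCNT2 (0.89) of that factor and with BRD2 (0.47). The nuclear RNAs NEAT1, the scaffold of paraspeckles, and MALAT1 gave 0.92 (21.0 ± 4.21 to 39.8 ± 3.67 CPM) and 0.69 (29.1 ± 3.08 to 47.0 ± 6.05 CPM), and with RBM14 they were the 3 raised of 9 in their list, none being lowered. Few replication-dependent histone symbols could be tested, 7 of 73 in the table, of which 5 were raised, with HIST1H2BD at 1.72 ± 0.313 CPM in Ctrl and 5.29 ± 0.155 in HS (1.62).

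A broad shift was seen in the numbered zinc finger genes, the ZNF and ZFP symbols, most of which encode C2H2 repressors. Of 424 tested, 246 (58.0%) were raised and 19 (4.48%) lowered, beside 18.7% and 16.0% of the other 12027 genes. The shift was small and wide, with quartiles of 0.10 and 0.59 and a median of 0.32 on the log2 scale where the other genes had -0.14, 0.16 and -0.002. Of the 424, 31 rose by over 2-fold, beside 297 of the 12027 other genes. These genes had a median of 10.1 CPM in Ctrl, below the 31.3 CPM of the others, so they were also compared at like levels. Of 96 members under 5 CPM in Ctrl 48 were raised (21.8% of other genes at that level), of those from 5 to 20 CPM 60.2% (23.7%) and of those at 20 CPM or more 60.7% (16.1%). Members on chromosome 19, where many zinc finger genes cluster, were raised in 106 of 176 cases and members elsewhere in 139 of 242, with medians of 0.37 and 0.29, whereas of 650 other genes on chromosome 19 16.0% were raised. Without HS scramble replicate 3 the counts were 243 raised and 19 lowered. ZNF701 rose from 0.625, 0.544 and 0.404 to 2.98, 2.97 and 3.27 CPM (2.54), ZNF436 from 8.47, 8.14 and 8.48 to 29.0, 29.6 and 28.0 CPM (1.79) and ZNF112 from 1.11, 1.11 and 1.19 to 4.04, 3.82 and 3.40 CPM (1.73), and the list by symbol also holds ZFP36, which is no C2H2 factor. Zinc finger genes resemble each other in sequence, and reads shared between them were not traced. The related BTB zinc finger genes were divided, with 15 of 38 raised, ZBTB21 (1.10) most, 8 lowered and a median of 0.01.

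**Figure D4:**
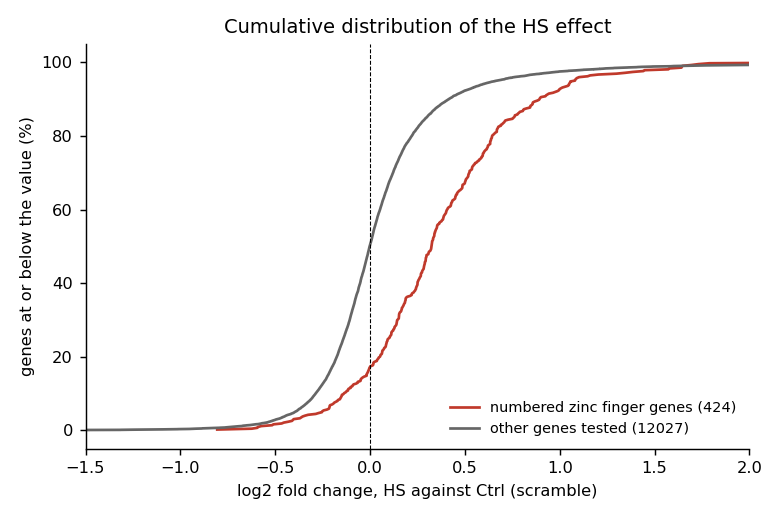
Cumulative share of genes (%) against the log2 fold change in HS for the 424 numbered zinc finger genes (red) and the other 12027 genes tested (grey). The red curve lies to the right over nearly its whole length, with a median of 0.32 against -0.002.

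The genes lowered over 2-fold held few members of any list, 4 of the 43. MIR17HG, the host transcript of the miR-17-92 cluster (chr13:91347686-91397592), fell from 7.65, 8.76 and 10.1 to 1.43, 1.65 and 1.51 CPM, a log2 fold change of -2.52 (standard error 0.20, FDR 7.5e-10), and was at 10.2, 8.85 and 7.46 CPM after recovery. FJX1, a secreted Golgi protein with a single exon, fell from 23.5, 22.3 and 21.7 to 5.32, 6.27 and 5.13 CPM (-2.01), GPR183, an oxysterol receptor, from 4.70 ± 1.13 to 1.28 ± 0.248 CPM (-1.88) and HPS6, needed for lysosome related organelles, from 28.6 ± 3.40 to 8.97 ± 0.607 CPM (-1.67). CCDC71 (-1.63), TIGD5 (-1.59), a transposase derived gene, and SLC16A6 (-1.55), a carrier of the monocarboxylate family, followed. MIEF2, an adaptor of mitochondrial fission, gave -1.43, DOLK, the dolichol kinase of glycosylation, -1.33, C15orf39 -1.33, AP5B1, an adaptor subunit, -1.31, NAT8L, which makes N-acetylaspartate, -1.27 and RAI1, a nuclear regulator, -1.22. The most abundant of the 15 was MAT2A, which makes S-adenosylmethionine, at 409, 408 and 401 CPM in Ctrl and 173, 177 and 164 CPM in HS (-1.24). In each of these genes the groups lay apart, since the choice of genes required it. After recovery MIR17HG overlapped its Ctrl range while MAT2A, at 198 ± 20.8 CPM, did not.

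Of the 43 lowered genes 40 could be placed on GENCODE, and 17 of these (42.5%) had a single exon, beside 8.08% of the raised genes placed and 2.66% of all genes placed. Small RNA genes add to that share, and 9 lowered snoRNA symbols passed the filter through Ctrl alone and so had to differ. The single-exon share is therefore not read as a result, and the coding genes were counted apart. Of 29 lowered coding genes 13 (44.8%) had their coding sequence in a single exon, beside 13.1% of the raised and 4.97% of all. With small RNA genes included, median exon numbers were 2 for lowered, 5 for raised and 9 for all genes placed, and median gene lengths 5363, 14687 and 32551 bases. The lowered medians rest in part on the snoRNA symbols, and medians of coding genes alone were not computed. Genes raised by at most 2-fold had a median of 10 exons and 45723 bases, and genes lowered by at most 2-fold a median of 7 exons and 27241 bases, with 4.66% of a single exon and 9.51% of the coding ones with a single coding exon.

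**Figure D5:**
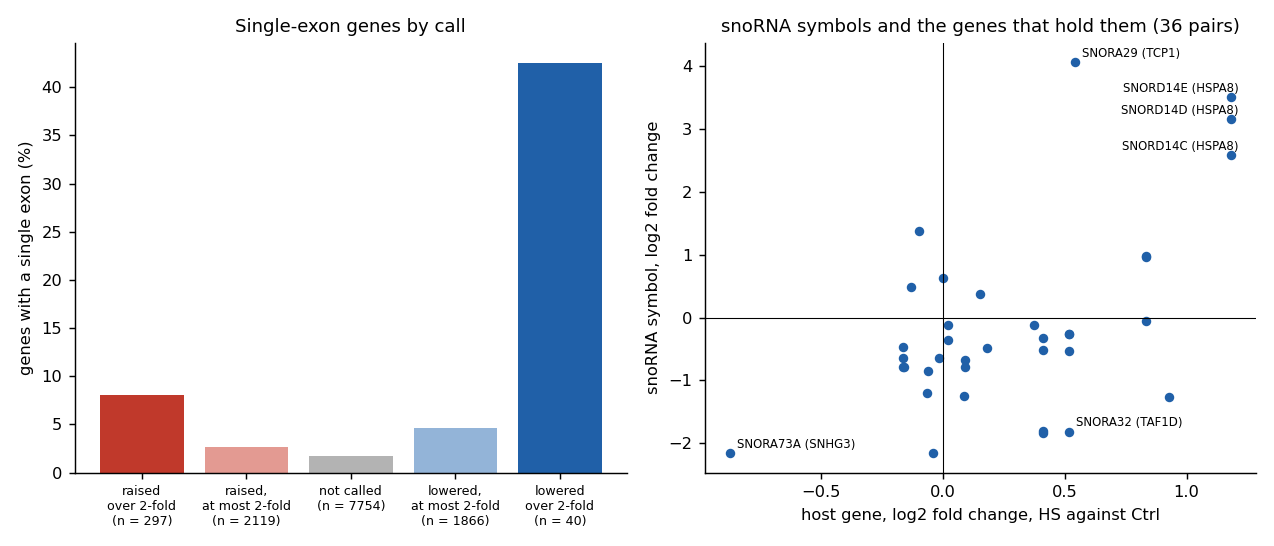
Left, the share of genes with a single exon (%) among genes placed on GENCODE, by call in HS against Ctrl. The genes lowered over 2-fold include snoRNA symbols that passed the filter through Ctrl alone. Right, the log2 fold change of each tested snoRNA symbol against that of the gene that holds it, for 36 pairs, in which points of opposite sign are the upper left and lower right.

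Symbols of small nucleolar RNAs, which guide the modification of ribosomal RNA and are cut from introns of host genes, were looked at after their values were seen. Of 41 tested, 5 were raised and 11 lowered over 2-fold, and 10 and 21 at any fold, although none exceeded 10.9 CPM in Ctrl. Most of the calls over 2-fold were of members that passed the filter through 1 group alone and so had to differ, since all 5 raised ones exceeded 1 CPM in no Ctrl library and 9 of the 11 lowered ones in no HS library. At any fold this held for 5 of the 10 and 13 of the 21, so the counts are not read as a result about these RNAs. Of the 5, 4 lay in genes that heat raised. SNORD14C, SNORD14D and SNORD14E lie in introns of HSPA8, with SNORD14E from 0.253 ± 0.0393 to 2.90 ± 0.135 CPM (3.51), and SNORA29 lies in an intron of TCP1 and rose from 0.433, 0.251 and 0.166 to 5.25, 4.91 and 4.03 CPM (4.06), where the host itself rose by 0.54. Several lowered ones lay in hosts that rose. SNORD22 (-1.80) and SNORD30 (-1.84) fell in SNHG1, whose own log2 fold change was 0.41, and SNORA32 gave -1.82 in TAF1D, which gave 0.52. Of the 36 pairs of a snoRNA symbol and a tested host 17 had the same sign, and 35 lay in introns of the host transcript used. SNORA73A (-2.16, but -3.02 without HS scramble replicate 2 and -1.79 without HS scramble replicate 3) lies both in SNHG3 (-0.87), a lowered host, and in RCC1 (-0.04). SNORA70, one of the 15 named lowered genes (2.48, 2.87 and 3.35 to 1.32, 1.18 and 1.26 CPM, -1.21), has several copies in the genome, so its reads are uncertain. The libraries were made from mRNA, and a read from an unspliced intron of the host would count on the snoRNA symbol as well, so that the mature snoRNA and the intron cannot be told apart. Among the 17 host transcripts tested by list, 5 were raised, with SNHG17 (1.06) and SNHG12 (0.93) most, and 3 lowered. DDX5, an RNA helicase, fell (1084 ± 41.6 to 642 ± 26.3 CPM, -0.76), while MIR3064 and MIR5047 within it rose (1.11 and 0.75).

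Cell cycle genes were lowered more often than raised, in modest steps, and most did not pass the test or were raised. Of 52 mitosis genes 16 were lowered (30.8%) and 3 raised (5.77%). Of 38 genes of DNA replication and the entry into S phase 13 were lowered (34.2%) and 6 raised (15.8%). Of all genes tested 15.7% were lowered and 20.1% raised. None of these list members passed 2-fold (1 lowered over 2-fold in the replication list without HS scramble replicate 3). CCNE2, a cyclin of that entry, fell from 25.0 ± 1.45 to 13.3 ± 2.21 CPM (log2 fold change -0.92), TTK, a kinase of the spindle checkpoint, gave -0.51, KIF20B, a kinesin, -0.43 and CCNB1, the mitotic cyclin, -0.40. In the other direction FAM83D, a spindle protein, gave 0.90 and E2F8, a repressor of the E2F targets, 0.58. TOP2A, the most abundant of the mitosis genes, was at 452 ± 14.4 CPM in Ctrl and 443 ± 22.2 CPM in HS (-0.03, FDR 0.77).

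Metabolic and housekeeping lists stayed near zero. No TCA cycle gene was raised and 4 of 22 were lowered, SDHC most (-0.28). None of 77 respiratory chain subunits and none of 81 cytosolic ribosomal proteins was raised, and 10 and 4 were lowered. The counts depended on HS scramble replicate 3, and more genes passed without it, when the lowered counts were 25 respiratory chain subunits, 18 cytosolic and 35 mitochondrial ribosomal proteins in place of 10, 4 and 19. RPL7L1, a relative of RPL7, gave -0.54, and RPL36A, the one ribosomal symbol lowered over 2-fold (3.51, 3.28 and 3.64 to 1.75, 1.70 and 1.39 CPM, -1.09), has near-identical copies that leave its reads uncertain. Of 24 glycolysis genes 6 were raised and 2 lowered, and the glucose carrier SLC2A1 was 1 of the lowered ones (767 ± 41.0 to 587 ± 17.8 CPM, -0.39). Of 25 cholesterol genes 7 were raised and 2 lowered. Among 180 solute carriers 31 were raised and 29 lowered (17.2% and 16.1%), near the shares over all genes tested. SLC5A3, the carrier of the osmolyte myo-inositol, rose from 32.8, 27.3 and 33.0 to 139, 135 and 129 CPM (2.12) while SLC25A32, a mitochondrial folate carrier, fell from 45.8 ± 2.45 to 24.8 ± 1.12 CPM (-0.89). Other lists were mixed, with autophagy genes at 4 raised and 2 lowered of 21 (1 lowered without HS scramble replicate 3), clock genes at 7 and 1 of 17, WNT targets at 5 and 4 of 19, HOX genes at 5 and 7 of 28, RAB genes at 5 and 11 of 52 and lncRNA symbols at 55 and 76 of 467. In the HOX list HOXC13 (1.70) was the member raised over 2-fold, and it overlaps the antisense HOXC13-AS, which was raised as well. In the RAB list RAB39A was, from 0.289, 0.188 and 0.428 to 2.48, 2.50 and 2.68 CPM (3.08). None of 11 mitochondrial proteases was raised, LONP1 among them, and 1 was lowered (3 without HS scramble replicate 3). The single olfactory receptor gene tested was not called, and mitochondrially encoded genes were not analysed here.

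Many of the raised genes lay in no list, 210 of the 314, and a few were singled out after their values were seen. FAM46A, a terminal nucleotidyltransferase gene named by its rank, rose from 15.2, 13.4 and 14.7 to 119, 121 and 119 CPM (log2 fold change 3.05). TXNIP, an arrestin domain protein that limits glucose uptake, rose from 208, 187 and 193 to 852, 817 and 872 CPM (2.11), and its relatives ARRDC4 (1.24) and ARRDC3 (1.05) rose as well. MICB (12.4 ± 0.264 to 76.2 ± 4.69 CPM, 2.62) and MICA (9.09 ± 0.326 to 20.9 ± 2.18 CPM, 1.20), which display cell stress to natural killer cells, are close copies of each other, so their reads may be shared. Genes that were all but silent in Ctrl also appeared. TDRG1, a lncRNA, had no count in the Ctrl libraries and 81, 111 and 76 counts in HS, and CCL26, a chemokine, 0, 1 and 1 counts in Ctrl and 168, 189 and 167 in HS. RFPL2 had 0, 1 and 2 counts in Ctrl and 62, 52 and 39 in HS, and CRYAB, a small heat shock protein whose symbol lies outside the HSP family, 0, 2 and 0 against 141, 160 and 167.

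The same heat was given to cells with siLonp1, in libraries that share none with the comparison above. Of the 314 raised genes 266 were also called as raised over 2-fold there, beside 3.07% of all genes tested, and all 314 had a log2 fold change above 0, beside 52.0% of all genes, with a median of 1.46. Of the 43 lowered genes 36 were called as lowered over 2-fold, beside 1.07% of all genes, and 42 lay below 0, beside 48.0%, with a median of -1.46. FOS gave 5.92 in siLonp1 and 6.05 in scramble, BAG3 5.74 and 5.39, SERPINH1 3.47 and 3.55, and MIR17HG -3.08 and -2.52.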

How the data were processed

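Total RNA was extracted with RNeasy columns and libraries were made with a TruSeq Stranded mRNA kit, per the labels. The authors aligned reads with STAR 2.7.3a to hg38 and counted them per gene symbol with featureCounts, and the deposited values were raw counts. The strand setting, the handling of multimapping reads and the annotation release are not given in the sources used here.

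Counts of all 18 libraries (6 groups of 3) were fitted with edgeR 4.0.16 in R 4.3.3 (TMM factors, group means, quasi-likelihood test), and HS was compared with Ctrl in scramble cells. The common biological coefficient of variation was 0.0656. Genes with CPM above 1 in at least 3 of the 6 libraries were kept, p-values were adjusted by the Benjamini-Hochberg method over all of them, and calls used an FDR of at most 0.05, with and without a 2-fold limit. The fit was tested on simulated data. CPM used TMM scaled library sizes, and the prior count was 0.125. Named genes were the 15 raised and 15 lowered most outside the HSP and J-domain genes with separate groups and a mean of at least 5 or 2 CPM, and in each list up to 4 called members and the most abundant. Genes named outside this rule, SNHG1, SNHG17 and the small RNAs among them where the text says so, were chosen after their values were seen. Genes with fewer than 4 counts in each Ctrl library are given as counts. The members and lists were chosen with earlier results of these data known.

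Gene structures came from GENCODE v44 (97.5% of genes matched) and promoters from RefSeq (GRCh38.p14). Alternatives were RLE factors, library size alone, other filters, DESeq2 1.42.0, a fit of the 6 libraries, a replicate block, a prior count of 2, an FDR of 0.01 and leaving out each library.

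Some genes are not reported here.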

Additional observations from a re-analysis of the deposited data

Results flagged for a closer look

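The response to HS differed between siLonp1 and scramble cells for 23 of the 140 genes whose log2 fold change was recomputed, and for 246 of the 12451 genes tested. The rule was the interaction term of the edgeR fit with a Benjamini-Hochberg adjusted p of at most 0.05 over all genes tested. Many of the 140 genes were chosen by the size of their change in scramble cells, which is part of the difference. That choice favours a smaller change with siLonp1, so these counts are not compared with each other. The values are the log2 fold change in siLonp1 minus that in scramble cells, with 3 libraries in each of the 4 groups.

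Among genes raised by HS in scramble cells, the difference was negative for FOXJ1 (-1.41), SNORD14E (-1.37), MALAT1 (-0.67), KLF6 (-0.67), SLC5A3 (-0.66), ARRDC3 (-0.65), EGR1 (-0.61), ID1 (-0.54), ZFP36 (-0.48) and ARRDC4 (-0.47), so that these rose less with siLonp1 or did not rise. FOXJ1 and SNORD14E exceeded 1 CPM in no Ctrl scramble library and passed the filter through the HS scramble libraries alone, a choice that favours a smaller rise with siLonp1, so their differences are given as values only. It was positive for CHAC1 (1.08), DEDD2 (0.86), SESN2 (0.84), CLK4 (0.72), ZFAND2A (0.68), HOXC13 (0.53) and AHSA1 (0.49). Among genes lowered by HS in scramble cells it was negative for C15orf39 (-1.08), CCDC71 (-0.86), RAI1 (-0.82) and MAT2A (-0.58), and positive for SNHG3 (0.62). LONP1, the silenced gene, gave -0.76.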

How the results depend on the processing

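The counts of 328 raised and 43 lowered genes became 549 and 120 with no filter other than 1 count in the 6 libraries, and 28 lowered genes were left with CPM above 1 in all 6 libraries, where 254 were raised. Leaving out 1 library at a time gave 325 to 343 raised and 40 to 48 lowered genes, and 2068 to 2549 raised and 1513 to 1979 lowered at any fold. Outside the HSP and J-domain genes the corresponding ranges over libraries were 311 to 329 and 40 to 48. With a filter over all 18 libraries, an alternative chosen after seeing the data, 377 were raised and 47 lowered.

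The replicate block gave 328 raised and 43 lowered genes in the fit of 18 libraries and 327 and 43 in the fit of 6. Ctrl and HS libraries with the same number did not deviate together (correlations over genes of 0.153, -0.104 and -0.170), so the numbers were not taken as a pairing.

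Of 2221 values for 140 genes under the alternatives, 2205 kept their direction and side of the threshold. FOSL1 (4 alternatives) and CCT4 (4) lost their call, and ACTB gained one with library size only (-0.17) and DESeq2 (-0.14). LONP1, at -0.02 with all libraries, ranged from -0.0716 to 0.0394 when single libraries were left out, the latter without HS scramble replicate 3. HSF2, also near zero, ranged from -0.016 to 0.047 in the same way, and gave -0.0029 with RLE factors, -0.029 with library size only, -0.0033 with DESeq2 and -0.0027 with the filter over 18 libraries. Of 660 medians of gene lists under the alternatives, 106 moved by more than the spread between replicates. That of the actin genes ranged from -0.168 to -0.070 and that of the immediate early genes from 0.829 to 1.24. The cause was not tested.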
